A study of Mus musculus with 8 samples.

Results

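Genes that activate, carry, bind or read thyroid hormone were followed in bulk RNA-seq of the mouse ventral hippocampus. They are *Dio2*, *Slco1c1*, *Crym*, *Thra*, *Thrb* and *Hr*, 6 of the 50686 genes of the count table, taken by symbol through the GENCODE annotation of the mouse genome. The libraries came from male, group-housed C57BL/6J mice of 8 weeks of age, a strain that the sample labels write as C57B6/J. A single injection of 3 mg/kg corticosterone, the main glucocorticoid (GC) of rodents, was given to 4 mice and vehicle to 4 others, and the ventral hippocampus was taken 3 h later, with 1 mouse per library. Vehicle libraries are numbered 1 to 4 and corticosterone libraries 5 to 8. No transgene or deletion is named in the labels, and tissue from the whole region was used, so that fewer cells of a type and less RNA per cell cannot be told apart in these data.

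Thyroid hormone reaches the brain mostly as thyroxine, a precursor with little activity at the receptors. Transporters in brain capillaries and astrocytes bring it in, and type 2 deiodinase, a selenoprotein made mainly by astrocytes and the tanycytes of the hypothalamus, removes an outer ring iodine and yields triiodothyronine. Triiodothyronine then acts in neurons and glia through nuclear receptors that sit on DNA with retinoid X receptors, hold corepressors when empty and coactivators when occupied.

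Between 17492159 and 19931987 reads per library were counted on genes, and 16018 genes had enough reads to be tested. All 5 markers of the hippocampus (*Prox1*, *Wfs1*, *Neurod2*, *Zbtb20* and *Fibcd1*) were detected, with summed normalized counts of 12960 to 15540 in vehicle and 12720 to 14650 in corticosterone libraries. Of 6 markers of thalamus, striatum and hypothalamus, *Oxt* and *Avp* had 5 and 4 reads over all libraries, but *Prkcd* had 177.7 to 745.4 normalized counts, *Tcf7l2* 52.6 to 247, *Drd1* 51.9 to 125.7 and *Drd2* 48.7 to 78.1. Their sum was 408.9 to 1060 in vehicle and 427.9 to 1099 in corticosterone libraries, and the part of tissue from these regions in the values below was not tested. Corticosterone library 5 stood apart from libraries 6 to 8. On the first principal component, which held 33.7% of the variance, it lay at -19.2 against 18.9 to 23.5 for the other corticosterone libraries, next to vehicle libraries 2 (-16.7) and 3 (-24.8). Results that moved with this library are therefore given with and without it.

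*Dio2*, which encodes type 2 deiodinase, lies on the minus strand at chr12:90724552-90738438 of GRCm38 (ENSMUSG00000007682). GENCODE M21 gives it 1 transcript with 2 exons and 5815 bp. In this messenger RNA 2 UGA codons (TGA in DNA), which elsewhere end translation, are annotated as selenocysteine, the first being the residue of the active site. Both codons of the *Dio2* transcript are shown because selenium supply, described further down, bears on whether this RNA yields enzyme. They were read from the GENCODE transcript of GRCm38, minus strand, with the TGA in capitals. The first is codon 130 at chr12:90729823-90729825 and the second is codon 263 at chr12:90729424-90729426, both in the same exon.
Dio2 codon 130: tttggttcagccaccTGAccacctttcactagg
Dio2 codon 263: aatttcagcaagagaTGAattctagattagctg

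The window around the RefSeq start site of *Dio2* is shown because the RNA level of this gene is what the comparison turns on. It covers chr12:90738989-90739288 of GRCm38.p6 on the minus strand, 250 bases before the start site and 50 from it on. Capitals mark the only match to the motifs searched, a cyclic AMP response element (TGACGTCA), at chr12:90739126-90739133.
Dio2 promoter: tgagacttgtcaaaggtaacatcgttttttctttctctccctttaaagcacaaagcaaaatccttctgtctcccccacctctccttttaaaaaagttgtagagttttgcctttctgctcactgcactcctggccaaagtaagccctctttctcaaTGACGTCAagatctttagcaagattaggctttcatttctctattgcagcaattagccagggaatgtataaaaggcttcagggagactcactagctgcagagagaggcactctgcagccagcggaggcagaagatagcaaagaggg

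The element starts 95 bases before the RefSeq start site, which itself is 600 bases upstream of the start that GENCODE gives. Of 32817 windows of this length in the RefSeq table, 588 (1.79%) hold these letters. The other motifs searched, on both strands, were the glucocorticoid palindrome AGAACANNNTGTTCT (0.00914% of windows) and its single arm TGTTCT (19.0%), and the thyroid hormone direct repeat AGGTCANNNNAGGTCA (0.0152%) and its single arm AGGTCA (16.3%). The arms are parts of the longer motifs, so a match to a longer motif is also a match to its arm. RefSeq windows were at hand for 3 of the 6 genes, with 1 for *Dio2*, 1 for *Slco1c1* and 2 for *Thrb*. No motif matched in the *Slco1c1* window. A *Thrb* window (chr14:17981394-17981693) held TGTTCT on each strand, and the other (chr14:17660710-17661009) held AGGTCA. A match is a description of the letters only, and the lack of one says nothing about sites outside these windows. The study states that binding sites of the glucocorticoid receptor often lie far from the start sites of target genes.

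The 6 genes differed widely in level. Levels are given as RPKM, the reads of a gene scaled by the length of its exons and by all reads on genes of that library, the one scale used here to set genes side by side. In vehicle libraries, *Thra* had 227.4 ± 29.2 (SD, n = 4), above 99.3% of the genes tested. *Crym* followed with 87.7 ± 9.50, at the 97.2nd percentile. *Dio2* had 11.3 ± 2.04 and *Slco1c1* 7.33 ± 0.430, at the 72.3rd and 61.6th percentiles. *Thrb* had 5.83 ± 0.734 and *Hr* 1.47 ± 0.319, at the 56th and 26.5th percentiles. The receptor gene *Thra* and the binding protein gene *Crym* were thus the abundant transcripts, and *Hr* was the scarcest. Over all 8 libraries, *Slco1c1* (6.11 to 7.85) and *Thrb* (4.82 to 6.67) had ranges that overlapped, although *Slco1c1* was the higher in each of the 8. *Dio2* lay above *Slco1c1* in every library on this scale, but with the length of the longest transcript in place of all exons *Slco1c1* came to 11.96 ± 0.701 in vehicle libraries and *Dio2* stayed at 11.3, a difference smaller than the SD of *Dio2*. After corticosterone the order was the same, with *Thra* at 206.8 ± 34.2, *Crym* at 83.9 ± 14.3, *Dio2* at 17.3 ± 3.17, *Slco1c1* at 6.68 ± 0.384, *Thrb* at 6.26 ± 0.403 and *Hr* at 1.195 ± 0.208.

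**Figure D1:**
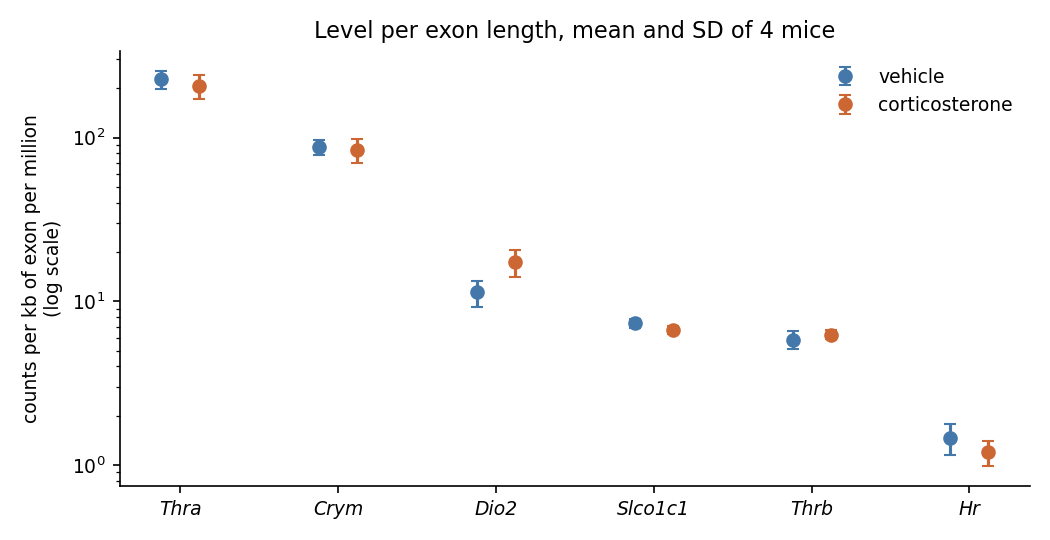
Level of the 6 genes as RPKM, the counts per kb of exon scaled to library size (log axis), with points for the group mean and bars for the SD of 4 vehicle (blue) or 4 corticosterone (orange) libraries. *Thra* and *Crym* lie far above the others, and *Dio2* is the gene whose group means differ most as a ratio, 11.3 against 17.3.

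The question put to each gene was whether its expression differed between corticosterone and vehicle. *Dio2* had the largest difference of the 6, with a mean about 1.52-fold higher after corticosterone, but it was not past the threshold of edgeR in the comparison of all 8 libraries. None of the 6 genes was past it (adjusted p value under 0.05 over all 16018 genes), where 0.00624% of all genes tested, 1 gene, were. At an unadjusted p under 0.05, *Dio2* was the only one of the 6, against 9.03% of all genes tested, and with DESeq2 at an adjusted p under 0.05 it was again the only one, against 0.374% of all genes (0.256% higher). In none of the 6 did the groups separate without overlap, which 3.66% of all genes did (1.99% higher and 1.68% lower).

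*Dio2* had normalized counts of 1516, 1075, 1059 and 1412 in vehicle libraries 1 to 4. In corticosterone libraries 5 to 8 it had 1396, 2083, 2156 and 2048. Libraries 6 to 8 lay above every vehicle library, while library 5 lay inside the vehicle range, so that the groups overlapped through this library alone. The means were 1265 ± 233 (SD, n = 4) and 1921 ± 353 (n = 4), a log2 fold change of 0.60 (SE 0.15, 95% interval 0.29 to 0.92), with an unadjusted p of 0.00121 and an adjusted p value of 0.282 with edgeR. By p, *Dio2* ranked 69th of the 16018 genes, and 2.74% of them had a larger difference in either direction. The exact permutation test over the 70 assignments of 4 against 4 gave p = 0.0857 (two-sided), where 0.0286 is the smallest p this design can reach. Counting error was 2.18% to 3.04% of a library's count and so small beside the coefficient of variation of 18.4% within each group. *Dio2* is among the genes that the study itself drew from these libraries, so its direction here is not independent evidence.

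Without corticosterone library 5, *Dio2* differed by 0.73 on the log2 scale (SE 0.11, edgeR adjusted p value 0.0108). In that comparison 10.2% of all genes tested were past the threshold, 3.73% higher and 6.47% lower, so being past it was far more common than with all libraries. DESeq2 on all 8 libraries gave 0.60 and an adjusted p value of 0.0305. Without a filter on low counts, edgeR gave 0.60 and an adjusted p value of 0.00276, with 0.287% of its 27483 genes past the threshold. The estimate there was the same as with the filter, and the SE was smaller (0.11 against 0.15). With 1 surrogate variable estimated from the data as a covariate, the difference was 0.32 with an adjusted p value of 0.286, and 0.0125% of all genes were past the threshold. *Dio2* was thus higher after corticosterone under all 17 alternatives, with log2 fold changes of 0.32 to 0.73, and past the threshold under 3 of them.

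**Figure D2:**
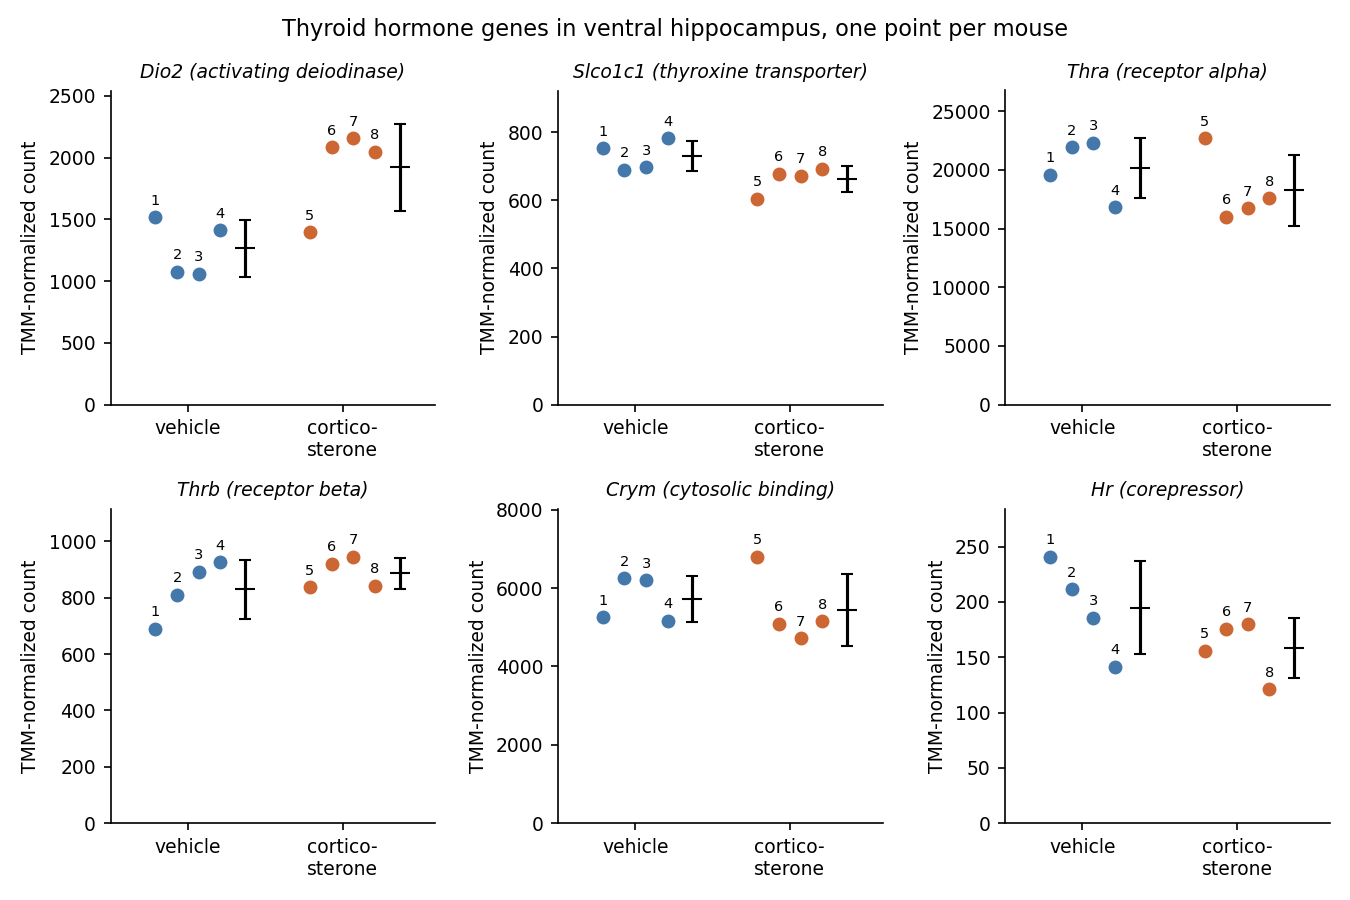
TMM-normalized counts of the 6 genes, one point per mouse with its library number (blue vehicle, orange corticosterone), with bars for mean and SD (n = 4 each). *Dio2* in corticosterone libraries 6 to 8 (2048 to 2156) lies above all vehicle libraries (1059 to 1516) and library 5 (1396) does not, and the groups overlap in the other 5 panels too.

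Other measures of the libraries differed between the groups or set library 5 apart, but not all of them followed *Dio2* from library to library. All 5 microglia markers were lower by sign after corticosterone, with summed normalized counts of 5030 to 5095 in vehicle and 3507 to 4878 in corticosterone libraries and none at 0. *Cx3cr1*, the fractalkine receptor gene, had 1159 ± 54 and 681.4 ± 163 (log2 fold change -0.76, edgeR adjusted p value 0.186), and *P2ry12* had 633.7 ± 77.8 and 457.8 ± 71.1 (-0.47, edgeR adjusted p value 0.298). In these 2 of the 5 the groups did not overlap, against 3.66% of all genes (1.68% lower), and the part of microglia content in the *Dio2* difference was not tested. The slope of a library's expression on the GC content of genes (log2 units per 6.3 points of GC) was 0.0375, 0.091, 0.11 and -0.0529 in vehicle libraries 1 to 4. It was 0.125, -0.115, -0.0822 and -0.114 in corticosterone libraries 5 to 8. Libraries with a negative slope are relatively rich in transcripts of low GC content, and the *Dio2* transcript has 43.4% GC, lower than the longest transcript of most genes tested (17.7th percentile). With this trend and that of length removed from each library, the *Dio2* difference was 0.50 on the log2 scale (edgeR adjusted p value 0.0708), against 0.60 before. Reads that could not be placed uniquely were 0.0699% to 0.111% of vehicle and 0.0420% to 0.0536% of corticosterone libraries, without overlap, and the part of this in the *Dio2* difference was not tested.

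**Figure D3:**
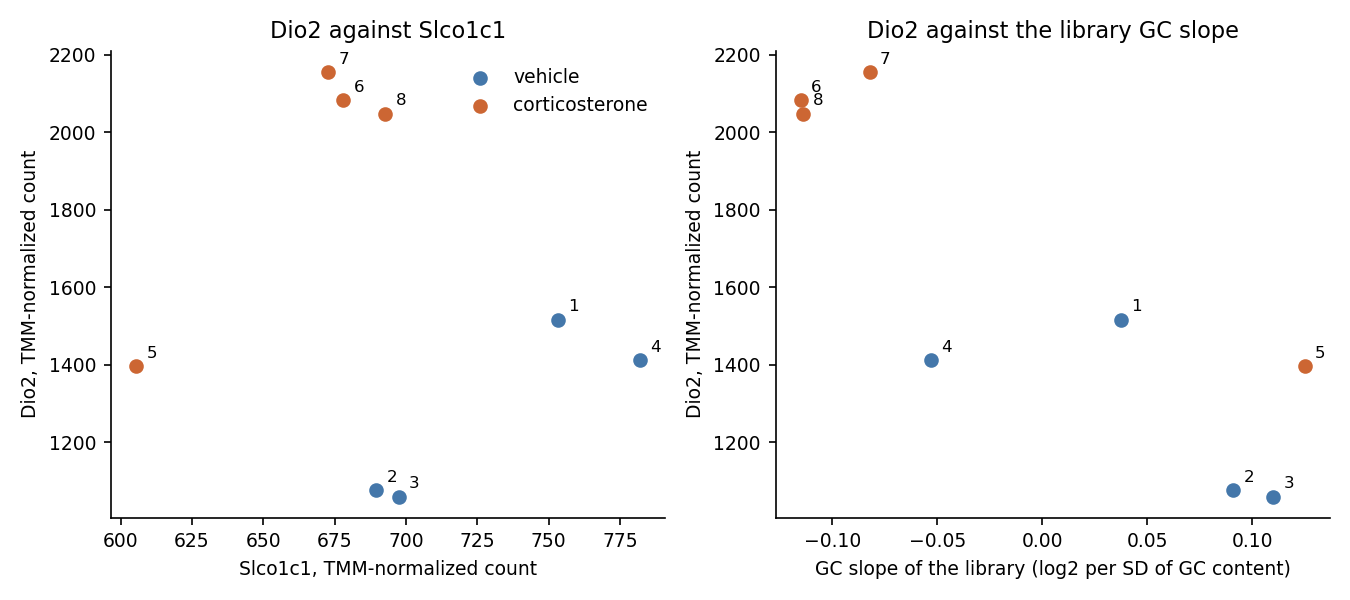
*Dio2* normalized count (vertical) against the *Slco1c1* normalized count (left) and against the slope of the library on GC content (right), one point per library, numbered, blue for vehicle and orange for corticosterone. Libraries 6 to 8 combine the highest *Dio2* counts with the lowest GC slopes, and library 5, with a slope of 0.125, has a *Dio2* count of 1396.

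*Dio2* is made mainly by astrocytes, so the astrocyte markers were read beside it. None of the 11 was past the threshold of edgeR (1 higher and 2 lower at an unadjusted p under 0.05, against 4.51% and 4.52% of all genes), 3 were higher and 8 lower by sign, and their median log2 fold change was -0.07, against 0.00 over all genes. Their summed normalized count was 90050 to 104800 in vehicle and 93400 to 99410 in corticosterone libraries, the latter range lying inside the former. The marker *Slc1a2* (45620 ± 7006 in vehicle and 45960 ± 4040 in corticosterone libraries) made up much of this sum. Scarcer markers hardly enter it, and the ratio given below rests on the same sum. Single markers went apart. *Gjb6*, a gap junction gene, had 1376 ± 165 in vehicle and 1867 ± 46.4 in corticosterone libraries (log2 fold change 0.44, edgeR adjusted p value 0.196). *Sox9*, a transcription factor of astrocytes, had 410.2 ± 87.1 and 254 ± 34.9 (-0.69, edgeR adjusted p value 0.236). *Gja1*, another gap junction gene, had 3549 ± 154 and 3204 ± 95.1 (-0.15, edgeR adjusted p value 0.545). The groups did not overlap in these 3 of the 11 markers, against 3.66% of all genes. The log2 ratio of *Dio2* to the summed astrocyte markers, chosen after its parts had been seen, was -6.28 ± 0.201 in vehicle and -5.65 ± 0.28 in corticosterone libraries, a difference of 0.62 (0.76 without library 5). The groups overlapped, where 2.87% of all genes had a ratio to these markers that was higher in every corticosterone library, and the exact permutation test gave p = 0.0571 (0.0857 adjusted over the 3 ratios tested).

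The *Dio2* transcript shares 100 bp of exon (1.72% of its exons, chr12:90738201-90738300) with *Gm26512*, a noncoding RNA on the opposite strand. The libraries were stranded, but the strand setting of the counting is not given in the sources used here. *Gm26512* had 37.8 ± 9.21 normalized counts in vehicle and 41.5 ± 5.76 in corticosterone libraries, a small number beside those of *Dio2* (log2 fold change 0.13, edgeR adjusted p value 0.828).

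*Slco1c1* encodes the main thyroxine transporter of brain capillaries and astrocytes and lies at chr6:141524368-141570177 on the plus strand (ENSMUSG00000030235, 14 exon blocks). It had normalized counts of 753.3, 689.6, 697.4 and 781.9 in vehicle libraries 1 to 4. In corticosterone libraries 5 to 8 it had 605.3, 678, 672.6 and 692.8. The corticosterone values were mostly the lower ones, and the overlap came from library 8, which lay just above vehicle library 2. The log2 fold change was -0.14 (SE 0.08, 95% interval -0.31 to 0.03), with an adjusted p value of 0.557 with edgeR and an exact permutation p of 0.0571. The spread was the narrowest of the 6 genes, with coefficients of variation of 6.08% in vehicle and 5.87% in corticosterone libraries, against a counting error of 3.55% to 4.01%. Without library 5 the log2 fold change was -0.10. It was -0.23 both with 1 surrogate variable (edgeR adjusted p value 0.29) and with the trend of GC content and length removed (0.147). Of 8 endothelial markers, 1 was higher and 7 lower by sign, with none past the threshold of edgeR (1 higher and 3 lower at an unadjusted p under 0.05, against 4.51% and 4.52% of all genes) and a median log2 fold change of -0.14, the same as that of *Slco1c1*. Their summed count was 3947 to 4942 in vehicle and 4445 to 5100 in corticosterone libraries. *Slc2a1*, a glucose transporter gene and the one marker that was higher (1891 ± 438 against 2601 ± 208), made up much of this sum. The other 7 summed to 2399 to 2502 in vehicle and to at most 2248 in corticosterone libraries, without overlap. Each of these 7 was lower by sign, so leaving out *Slc2a1* fixed the direction of this sum. Its separation is therefore not a further result, and the sum of all 8 markers overlapped between the groups. The part of capillary content in the *Slco1c1* values was not tested.

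*Dio2* and *Slco1c1* can also be set against each other within a library, as activation of thyroxine against its entry. The ratio of their normalized counts was 2.01, 1.56, 1.52 and 1.81 in vehicle libraries 1 to 4, and 2.31, 3.07, 3.2 and 2.96 in corticosterone libraries 5 to 8. Here the groups did not overlap, library 5 included. The difference was 0.74 on the log2 scale (0.85 without library 5), and the exact permutation test gave p = 0.0286, the smallest it can give, or 0.0857 adjusted over the 3 ratios. Of all other genes tested, however, 20.0% had a ratio to *Slco1c1* that was higher in every corticosterone library, so a separation of this ratio was common and was not particular to *Dio2*.

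*Crym* encodes mu-crystallin, a cytosolic protein that binds triiodothyronine. It lies at chr7:120186380-120202111 on the minus strand (ENSMUSG00000030905, 7 exon blocks). It had normalized counts of 5250, 6246, 6192 and 5161 in vehicle libraries 1 to 4. In corticosterone libraries 5 to 8 it had 6793, 5090, 4715 and 5150. Library 5 was the highest of all 8 and libraries 6 to 8 were the lowest 3, so the corticosterone group spanned the whole vehicle range. The log2 fold change was -0.07 (SE 0.11, 95% interval -0.31 to 0.17), with an adjusted p value of 0.81 with edgeR. Without library 5 it was -0.20 with an adjusted p value of 0.114, and with 1 surrogate variable it turned to 0.11.

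*Thra* encodes the alpha receptor of thyroid hormone and lies at chr11:98740638-98769006 on the plus strand (ENSMUSG00000058756, 17 exon blocks). It had normalized counts of 19570, 21940, 22320 and 16830 in vehicle libraries 1 to 4. In corticosterone libraries 5 to 8 it had 22680, 16000, 16750 and 17580. As with *Crym*, library 5 was the highest of all, and the groups overlapped throughout. The log2 fold change was -0.14 (SE 0.12, 95% interval -0.39 to 0.11), with an adjusted p value of 0.645 with edgeR. Without library 5 it was -0.27 with an adjusted p value of 0.067. The sign was not stable, since it was 0.07 with 1 surrogate variable and 0.02 after removal of the GC content and length trend. The longest *Thra* transcript has 59.8% GC, at the 95.2nd percentile of genes tested.

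The alpha locus makes different proteins from its alternative ends. The transcript *Thra-201* codes for 492 amino acids and *Thra-202*, the receptor that binds hormone, for 410, and counts per gene do not separate them. *Thra-201* also shares 263 bp of exon with *Nr1d1*, a repressor of the circadian clock on the opposite strand (chr11:98768157-98768419, 5.7% of *Thra* exons). *Nr1d1* had 1990 ± 335 normalized counts in vehicle and 1889 ± 162 in corticosterone libraries (log2 fold change -0.07, edgeR adjusted p value 0.803), far below the 16000 to 22680 of *Thra*.

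*Thrb* encodes the beta receptor and lies at chr14:17660261-18038090 on the plus strand (ENSMUSG00000021779, 14 exon blocks). It had normalized counts of 690.4, 811, 893 and 926 in vehicle libraries 1 to 4. In corticosterone libraries 5 to 8 it had 837.3, 919.9, 944.8 and 842.8. Vehicle library 1 was the lowest and the other values were mixed between the groups. The log2 fold change was 0.09 (SE 0.10, 95% interval -0.11 to 0.30), with an adjusted p value of 0.71 with edgeR, and it ranged from 0.01 to 0.15 over the alternatives. The transcripts *Thrb-201* and *Thrb-203* code for 461 and *Thrb-202* for 475 amino acids, and counts per gene join them too. The log2 ratio of *Thrb* to *Thra* counts, not corrected for length, was -4.6 ± 0.289 in vehicle and -4.35 ± 0.295 in corticosterone libraries (difference 0.25, exact permutation p = 0.286, also 0.286 adjusted over the 3 ratios), and 0.39 without library 5.

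*Hr* (hairless) encodes a corepressor of the thyroid hormone receptors whose own expression in brain is raised by the hormone, so it served as both partner and response gene. It lies at chr14:70552212-70573548 on the plus strand (ENSMUSG00000022096, 21 exon blocks). It had normalized counts of 240.6, 211.6, 185.8 and 141.2 in vehicle libraries 1 to 4. In corticosterone libraries 5 to 8 it had 156, 175.7, 179.7 and 120.8. The highest 3 values were from vehicle libraries and the lowest from corticosterone library 8, but vehicle library 4 lay below libraries 5 to 7. The log2 fold change was -0.30 (SE 0.17, 95% interval -0.67 to 0.07), with an adjusted p value of 0.562 with edgeR. *Hr* was the least precise of the 6, with a counting error of 6.39% to 8.98% and coefficients of variation of 21.7% and 17%. Leaving out 1 library moved the log2 fold change between -0.19 (without vehicle library 1) and -0.44 (without vehicle library 4), and it was -0.20 without corticosterone library 8. The longest *Hr* transcript has 61.6% GC (97.9th percentile), and with the trend of GC content and length removed the log2 fold change came to -0.09.

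Leaving the differences between groups, some of the 6 genes varied together from library to library. These correlations of log2 CPM values are descriptions over 8 libraries whose slopes on GC content differ, and no p is given. *Thra* and *Crym* had r = 0.92 over all libraries and 0.93 after the group means had been taken out. *Dio2* went the other way, with r = -0.82 with *Thra* and -0.77 with *Crym* (-0.90 and -0.97 within groups). *Dio2* and *Slco1c1* had r = -0.10 over all libraries but 0.93 within groups, where both were low in corticosterone library 5 and in vehicle libraries 2 and 3. *Thrb* had its largest r within groups with *Hr* (-0.42).

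The genes most like *Dio2* across the 8 libraries were *Rpl14-ps1* (r = 0.98), *Fam133b* (0.98), *Azin1* (0.97), *Usp53* (0.97) and *Extl2* (0.97), and the most opposed were *Gm12184* (-0.99), *Syndig1* (-0.99) and *Stk40* (-0.98). All 8 had groups that overlapped, with adjusted p values of 0.414 to 0.546 with edgeR. For *Slco1c1* the most alike were *Atf7*, *Qk* and *Spata13* (0.95 to 0.96), and for *Thra* they were *Ccdc85b*, *Nenf* and *Fam171a2* (0.99 each). For *Thrb* they were *Gm5903*, *Topors* and *Pcyox1* (0.96 to 0.97), for *Crym* they were *Crtac1*, *Prmt2* and *Gm7666* (0.98 to 0.99), and for *Hr* they were *Eif4a3*, *Ercc1* and *4930594M22Rik* (0.96 each).

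Around the 6 genes, 52 others from 6 lists of the pathway were read from the same test, of which 45 had enough reads. None was past the threshold of edgeR or of DESeq2, 2 were higher and 3 lower at an unadjusted p under 0.05 (4.51% and 4.52% of all genes), and none had groups without overlap (3.66% of all genes). By sign 20 were higher and 25 lower. Without library 5, 6 of the 45 (13.3%) were past the threshold, all lower, against 6.47% of all genes that were lower in that comparison and 10.2% in either direction. Among them were *Mbp* (log2 fold change -0.64), *Rasd2* (-0.51), *Rxrb* (-0.37), *Sema7a* (-0.31) and *Usp20* (-0.30). The longest transcripts of these 5 genes have 51% to 61.4% GC, above the median gene in each case.

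**Figure D4:**
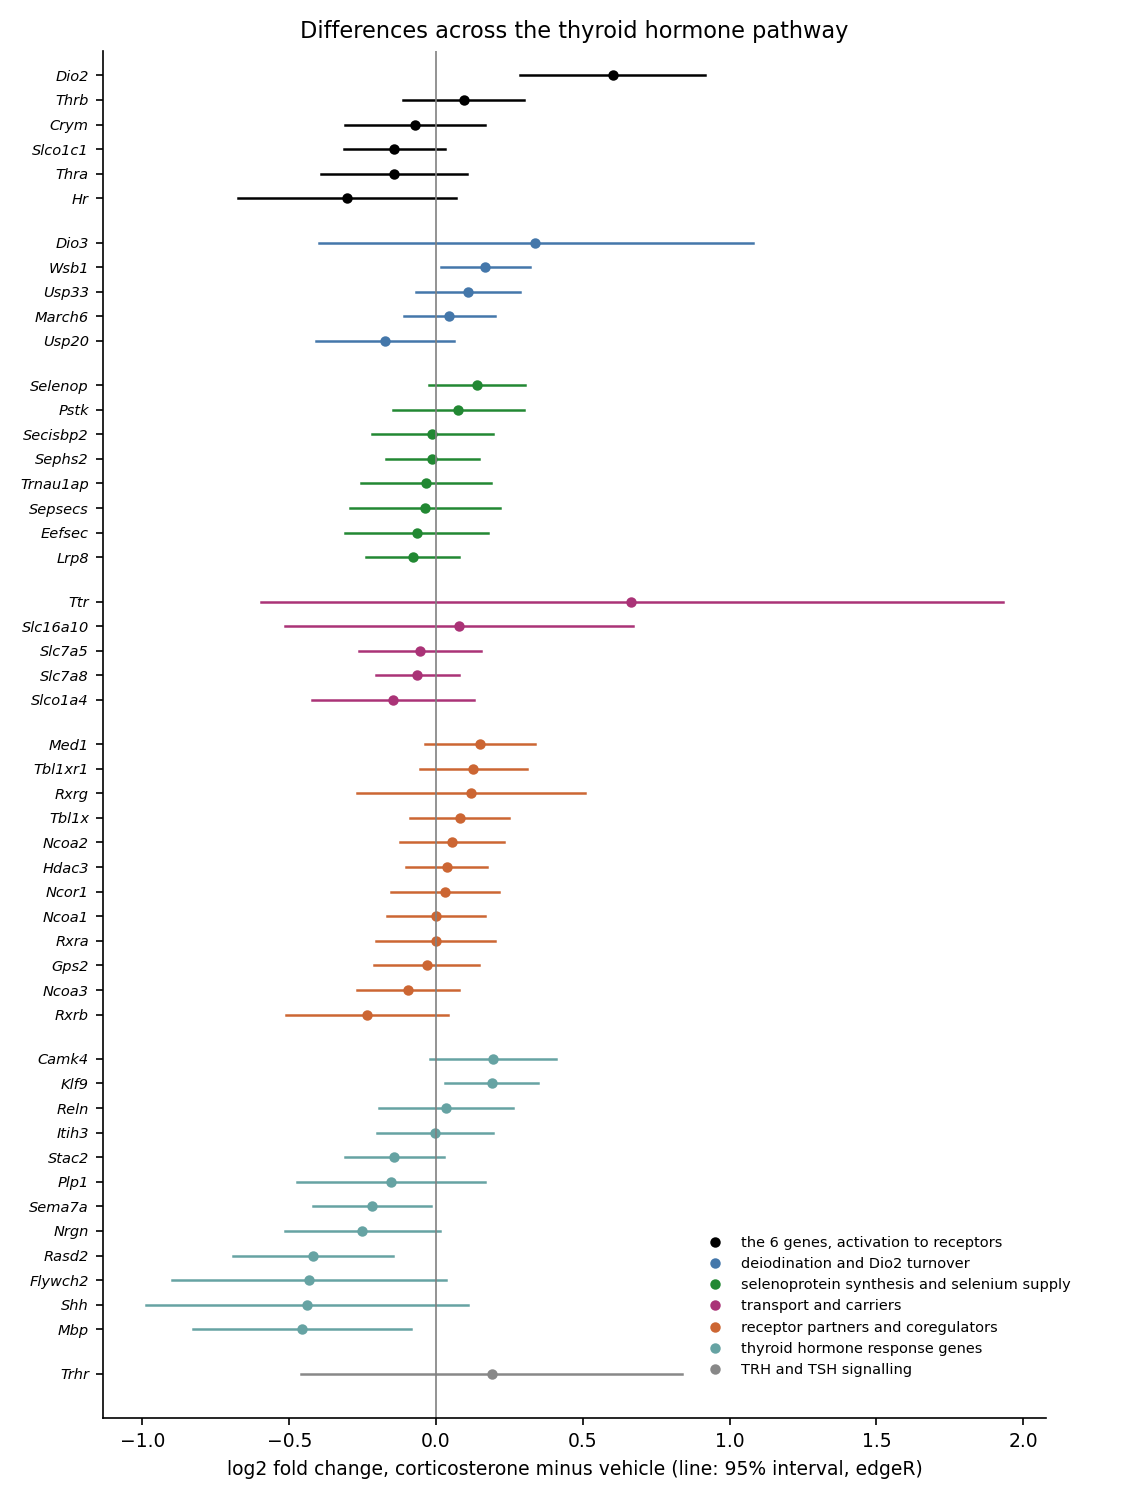
Log2 fold change of corticosterone against vehicle with its 95% interval (edgeR) for the 6 genes (black) and for tested genes of the 6 pathway lists (one colour per list). The *Dio2* interval (0.29 to 0.92) lies farthest from 0 among the 6 genes, and most others span 0.

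On the list of deiodination and the turnover of type 2 deiodinase, no gene was past the threshold of edgeR with all 8 libraries. Of the 6 genes on this list 5 were tested, 4 were higher and 1 lower by sign, with a median of 0.11. *Wsb1*, which encodes the adaptor of a ubiquitin ligase that marks the deiodinase for breakdown, had 938 ± 33.4 normalized counts in vehicle and 1054 ± 62.3 in corticosterone libraries (log2 fold change 0.17, edgeR adjusted p value 0.544). *Usp20*, encoding an enzyme that removes this mark, had 2385 ± 230 and 2113 ± 356 (-0.17, edgeR adjusted p value 0.586). Without library 5 its log2 fold change was -0.30 (edgeR adjusted p value 0.033). *Dio3*, the inactivating deiodinase, was uneven within both groups, with 49.1 to 182.2 in vehicle and 79.9 to 194 in corticosterone libraries. Its log2 fold change was 0.34, with a wide 95% interval of -0.40 to 1.08 (edgeR adjusted p value 0.71). *Dio1*, the deiodinase of liver and kidney, had 2 reads over all libraries. *Dio2* was therefore the one outer ring deiodinase with appreciable reads.

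All 8 genes for selenoprotein synthesis and selenium supply were tested, with 2 higher and 6 lower by sign and a median of -0.02. *Selenop*, the selenium carrier released by liver and astrocytes, had 4132 ± 395 in vehicle and 4548 ± 124 in corticosterone libraries (0.14, edgeR adjusted p value 0.55). *Lrp8*, its receptor on neurons, had 1448 ± 95.2 and 1371 ± 77.1 (-0.08, edgeR adjusted p value 0.681). *Secisbp2* and *Eefsec*, whose proteins let the ribosome read UGA as selenocysteine at the codons shown above, had log2 fold changes of -0.01 and -0.07.

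Of 7 genes for other transporters and carriers 6 were tested, with 2 higher and 4 lower by sign and a median of -0.06. *Ttr*, the thyroxine carrier of cerebrospinal fluid made by choroid plexus, had 831.8, 385.9, 129.1 and 64.2 in vehicle libraries 1 to 4 and 846.1, 718.2, 214.4 and 457 in corticosterone libraries 5 to 8. It thus varied over 10-fold between mice of 1 group (log2 fold change 0.66, SE 0.58, edgeR adjusted p value 0.669). Of the 6 choroid plexus markers 4 were tested, 3 higher and 1 lower by sign, with a median of 0.85. *Ttr* is one of these markers, and the other 5 summed to 336.6 to 429.2 in vehicle and 361.5 to 428.9 in corticosterone libraries, most of it *Kl*. The scarce *Otx2* had 10.6 ± 6.16 and 21.7 ± 10.5 (log2 fold change 1.04, edgeR adjusted p value 0.545) and *Kcnj13* 4.66 ± 5.56 and 12.7 ± 6.78 (1.42, edgeR adjusted p value 0.545). *Folr1* and *Aqp1* were near 0, and the part of adhering choroid plexus in the *Ttr* values was not tested. *Slc17a4* had no read in any library.

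Receptor partners and coregulators were all tested (13 genes, 8 higher and 5 lower by sign, median 0.03). *Med1*, a coactivator subunit, had 971.6 ± 102 in vehicle and 1077 ± 67.1 in corticosterone libraries (0.15, edgeR adjusted p value 0.572). *Rxrb*, a retinoid X receptor, had 1231 ± 164 and 1046 ± 198 (-0.24, edgeR adjusted p value 0.55). The corepressor gene *Ncor1* had a log2 fold change of 0.03 (edgeR adjusted p value 0.898).

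Genes known to respond to thyroid hormone in brain did not move one way. Of 14 genes 13 were tested, with 4 higher and 9 lower by sign and a median of -0.15, and *Dio3* is on this list as well as on that of deiodination. *Klf9*, a transcription factor raised by triiodothyronine and also by GCs, had 3650, 3133, 3323 and 3249 in vehicle libraries 1 to 4 and 3585, 3750, 4161 and 3726 in corticosterone libraries 5 to 8. The groups overlapped through libraries 1 and 5 (log2 fold change 0.19, SE 0.07, edgeR adjusted p value 0.517). *Rasd2*, a GTP-binding protein gene that thyroid hormone raises in striatum, had 1571, 1137, 1483 and 1164 in vehicle and 1177, 809.3, 1034 and 983.1 in corticosterone libraries. Again library 5 alone made the groups overlap (-0.42, SE 0.13, edgeR adjusted p value 0.439). *Mbp*, a myelin gene, had a log2 fold change of -0.46 (edgeR adjusted p value 0.51), and beside it all 5 oligodendrocyte markers were lower by sign, with summed counts of 15580 to 29030 in vehicle and 16290 to 19620 in corticosterone libraries. None of these markers was at 0, none was past the threshold of edgeR (0 higher and 2 lower at an unadjusted p under 0.05, against 4.51% and 4.52% of all genes), and their part in the *Mbp* values was not tested.

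The pituitary arm of the hormone axis was nearly silent in this tissue. Of 5 genes for thyrotropin-releasing hormone and thyrotropin signalling only *Trhr*, the receptor of the releasing hormone, had enough reads, with 112.5 ± 51.5 in vehicle and 128.5 ± 32.5 in corticosterone libraries (0.19, edgeR adjusted p value 0.815). *Trh*, *Trhr2*, *Tshr* and *Tshb* had 43, 30, 37 and 2 reads over all 8 libraries.

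**Figure D5:**
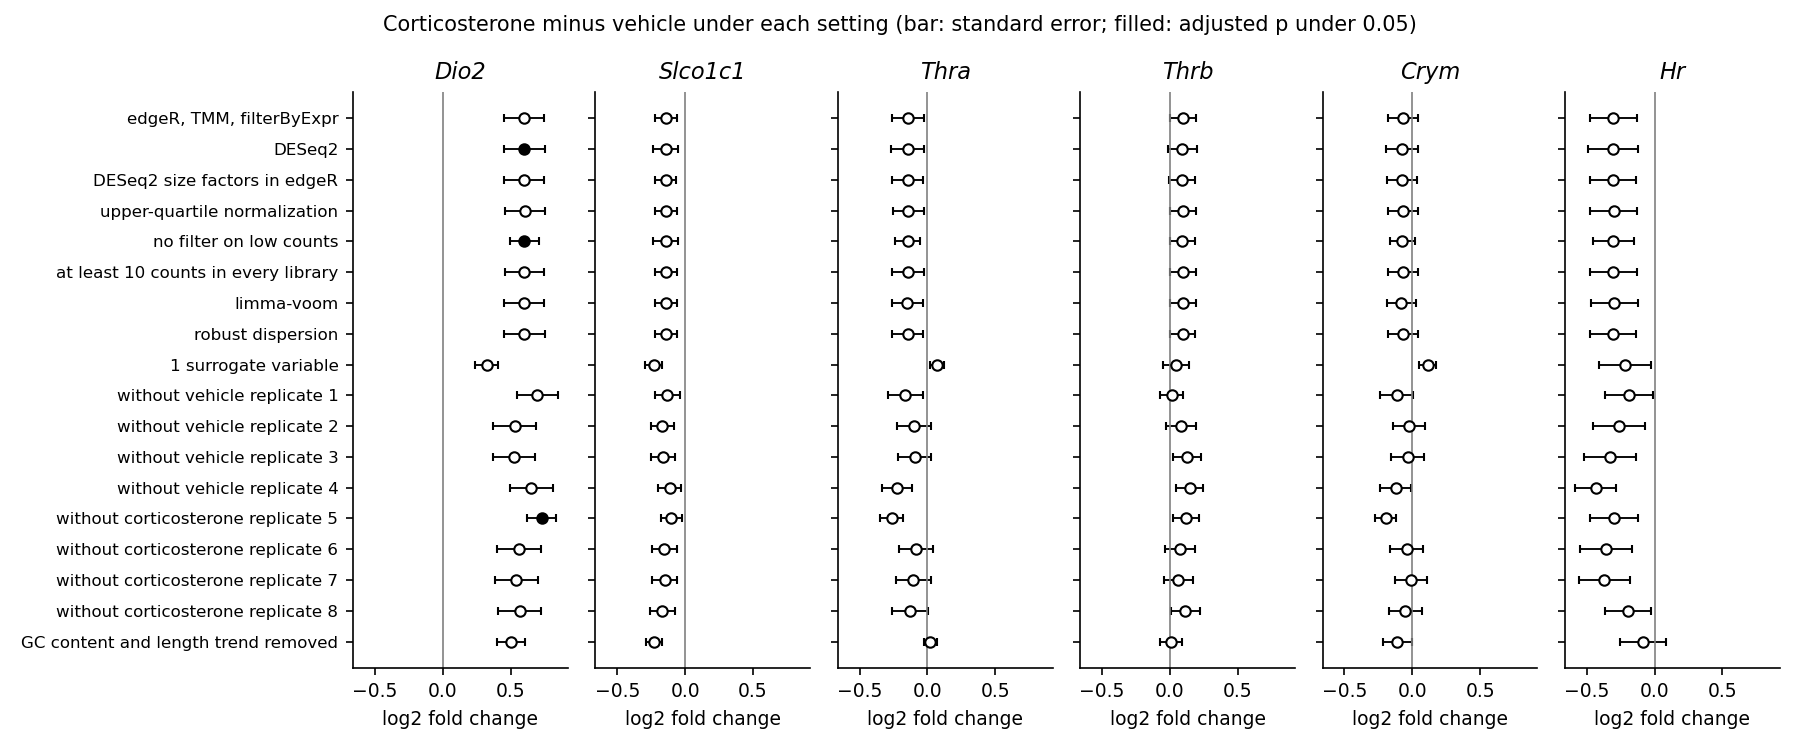
Log2 fold change of each of the 6 genes (corticosterone minus vehicle, bar: SE) under the comparison as reported (top row) and the 17 alternatives, with filled points for an adjusted p value under 0.05. *Dio2* is right of 0 in every row and filled in 3, and no other gene is filled in any row.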

How the data were processed

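RNA-seq was measured in 8 ventral hippocampus libraries (4 vehicle, 4 corticosterone). Per the methods and the labels, the authors isolated total RNA, made stranded mRNA libraries, sequenced 100-base paired ends, aligned them to mm10 with GSnap, counted reads per gene with HTSeq-count and deposited these raw counts without normalization. The annotation release and strand setting are not given in the sources used here. The 5 rows that name no gene (13.7% to 15.4% of reads) were left out. Symbols and coordinates came from GENCODE M21 (GRCm38, 50462 of 50686 identifiers found).

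Counts were normalized with TMM and compared in edgeR 4.0.16 (R 4.3.3) by its quasi-likelihood test after filterByExpr, with Benjamini-Hochberg adjustment over all genes tested and a threshold of 0.05. RPKM values were computed from the counts and the summed exon length of each gene. Standard errors were the log2 fold change divided by the square root of F. A prior count of 2 entered the log2 values. Single values were compared by an exact permutation test. The alternatives were DESeq2 1.42.0, DESeq2 size factors, upper-quartile normalization, no filter, at least 10 counts in every library, limma-voom (limma 3.58.1), robust dispersion, 1 surrogate variable (sva 3.50.0), each library left out in turn and, added after seeing the data, removal of each library's trend with GC content and length (splines with 5 degrees of freedom).

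The genes and lists were chosen with earlier results of these data known. From each pathway list the gene with the smallest p in each direction was named, with genes that share exons with one of the 6 genes, and, by Pearson correlation over the 8 libraries, the 5 most and 3 least like *Dio2* and the 3 most like each other gene. The remaining genes named were chosen after their values were seen. The scripts were tested on simulated data. Some single genes of the lists are not reported here and remain in the counts.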

Additional observations from a re-analysis of the deposited data

Results flagged for a closer look

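The normalized count of *Dio2* in corticosterone library 5 was 1396, while libraries 6 to 8 of its group had 2048 to 2156, a gap large for the range of its group (Dixon's test for 4 samples). The share of reads that fell on more than 1 gene was 1.483% in the same library against 1.253% to 1.279% in the others, and its slope on GC content was 0.125 against -0.115 to -0.0822. Among vehicle libraries, library 4 had a share of such ambiguous reads of 1.404% against 1.639% to 1.674%. In all, 4 of 32 sets of 4 values stood out this way, where about 1.6 would by chance if the sets were independent. They were not independent, since the flagged sets of corticosterone values all stood out through library 5.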

How the results depend on the processing

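No paired analysis was possible because vehicle libraries are numbered 1 to 4 and corticosterone libraries 5 to 8. The number of genes past the threshold among all tested was 1 with edgeR, 63 with DESeq2, 79 without a filter, 0 with at least 10 counts in every library, 2 with 1 surrogate variable and 21 with the trend of GC content and length removed, and it ran from 0 to 1651 when a library was left out (19 without vehicle library 1, 1651 without corticosterone library 5). The *Dio2* log2 fold change was positive throughout, and past the threshold with DESeq2 (0.60), without a filter (0.60) and without corticosterone library 5 (0.73). Leaving out each library in turn gave 0.52 to 0.73, with adjusted p values of 0.0108 to 0.798. For *Thra* the sign turned with 1 surrogate variable (0.0689) and with the trend removed (0.0204), and for *Crym* with 1 surrogate variable (0.11). The causes were not tested. None of the 5 genes other than *Dio2* passed the threshold under any alternative, and of the pathway lists between 0 and 6 genes did when a library was left out (6 without corticosterone library 5). With the longest transcript as length, the vehicle level was 427.9 for *Thra*, 110.9 for *Crym*, 11.96 for *Slco1c1*, 6.97 for *Thrb* and 1.81 for *Hr*. Depth limited *Hr* most, with a counting error of up to 8.98%.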
